A study of Mus musculus with 6 samples.

Results

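The 9 genes described here make, carry, sense or destroy retinoic acid. They are the synthesis enzymes Aldh1a1, Aldh1a2 and Aldh1a3, the cellular binding proteins Crabp1 and Crabp2, the hydroxylase Cyp26b1 and the nuclear receptors Rara, Rarb and Rarg. They were taken by name from the array annotation, 1 row per gene, and all 9 were found among 19938 genes that have a row with a single gene symbol. No row shared a member's symbol with another gene. The arrays measured total RNA of lumbar spinal cord from mouse embryos of strain SV129 at stage E15.5. Of 6 arrays, 3 came from wild-type embryos and 3 from embryos labelled TNC -/-, that is, knockout for the gene of tenascin-C, an extracellular matrix glycoprotein of radial glia and young astrocytes. The labels call the samples biological replicates. Litters, pooling of embryos and the deleted part of Tnc were not given in the sources used here.

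Retinoic acid is made from vitamin A in successive oxidations, the last of them carried out by the retinaldehyde dehydrogenases of the Aldh1a family. It is held in the cell by the Crabp proteins, binds receptors of the Rar family paired with Rxr partners on DNA, and is cleared by Cyp26 enzymes. In the developing spinal cord it helps neural progenitors to differentiate, and at limb levels a group of motor neurons makes it through Aldh1a2, as do the meninges around the cord. The series title puts patterning genes at the centre of the study, and the comparison here asks whether the genes of this signal stood at other levels in the knockout.

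The receptors act through direct repeats of a hexamer, and Rarb and Cyp26a1 are the standard genes that retinoic acid switches on through such an element. Their sequences are shown because the levels of both genes are commonly read as responses to retinoic acid. Start-site windows from RefSeq (GRCm38.p6), reaching from 250 bases before to 50 after a gene start, were searched on both strands for pairs of the hexamer AGGTCA or its variants AGTTCA and also GGGTCA as well as GGTTCA, both in the same orientation, separated by 5 bases (DR5), 2 bases (DR2) or 1 base (DR1). Of the 9 members, 7 had windows, 12 in all, while Aldh1a3 and Crabp2 had none and were not searched. Rarb was the only 1 of those 7 with a DR5 pair in a window, and none of their windows held a DR2 or DR1 pair. Sequence outside the windows was not searched. Of all 32851 windows, 0.0974% held a DR5, 0.268% a DR2 and 0.222% a DR1 pair. The Rarb stretch is chr14:16575477-16575596 on the minus strand, the 120 bases before the start in that table, which lies inside the longer annotated span of the gene. The Cyp26a1 stretch is chr19:37697770-37697799 on the plus strand. Capitals mark the DR5 pair, which in Cyp26a1 is read from the opposite strand and so appears as its reverse complement.
Rarb: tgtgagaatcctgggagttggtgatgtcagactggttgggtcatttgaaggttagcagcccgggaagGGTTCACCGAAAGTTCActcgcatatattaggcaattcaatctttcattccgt
Cyp26a1: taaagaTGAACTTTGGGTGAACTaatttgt

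The Rarb pair ended 36 bases before the start and the Cyp26a1 pair 15 bases before it. A match of letters is a description of the window and no measurement of binding.

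Levels below are RMA signals on the log2 scale. They were set against a background guide of 6.14, the level under which 95% of 1190 genes for odour and pheromone receptors fell. Signals of different genes come from different probes, so they are not compared as amounts of RNA. Every member lay above the guide, from Aldh1a1, 0.30 above it, to Crabp1, 6.70 above it. Array medians ran from 6.96 to 7.10. The lumbar Hox genes, a list of 6 that includes Hoxc10, Hoxd10 and Hoxd11, were all above the guide, as were all 9 neuronal and all 8 radial glial markers. The targeted gene Tnc had a wild-type signal of 10.32 ± 0.36 and a knockout signal of 9.62 ± 0.15 (SD, n = 3 each), and the difference of -0.69 had a 95% interval from -1.09 to -0.30. Its groups did not overlap, but signal remained in every knockout array. Like every other gene tested, it did not pass an adjusted p of 0.05 (limma). On the first principal component, which held 49.0% of the variance, wild-type replicates 1 and 3 were the end points and all knockout arrays lay between them. Knockout replicates 1 and 3 carried Y-linked signal and read Xist under the guide, whereas the other 4 arrays were the reverse. Sex therefore differed between the groups. A fit with a sex term, in which only knockout replicate 2 is set against wild type, gave -0.56 for Tnc.

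No retinoic acid gene passed the test. With limma and Benjamini-Hochberg adjustment over all genes, 0 of 9 members passed an adjusted p of 0.05, and so did 0 of all 19938 genes (0%). At an unadjusted p under 0.05 there were 0 members against 339 of all genes, or 1.70%. Among alternative fits that kept more than 1 array per group, Crabp2 reached that level without wild-type replicate 1 and with array weights. Cyp26b1 reached it with array weights only. Of all 19938 genes, 663 did so without wild-type replicate 1 and 4181 with array weights. With wild-type replicates 1 and 3 both left out, the Crabp2 difference was -0.47. With the sex term the differences were -0.04 for Aldh1a1, -0.09 for Aldh1a2, -0.19 for Aldh1a3, 0.07 for Crabp1, -0.33 for Crabp2, 0.21 for Cyp26b1, 0.13 for Rara, -0.02 for Rarb and -0.02 for Rarg, and none passed. In the fit of all 6 arrays without that term, 4 members stood higher in knockout and 5 lower, with a median difference of -0.03, against -0.00688 over all genes. The median size of the difference was 0.07 for the members and 0.05 for all genes. All 9 intervals included no change, and together they reached from 67.2% of the wild-type signal, the lower bound for Crabp2, to 124%, the upper bound for Cyp26b1. RNA of the whole cord was measured, so fewer cells of a type and less RNA per cell cannot be told apart.

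**Figure D1:**
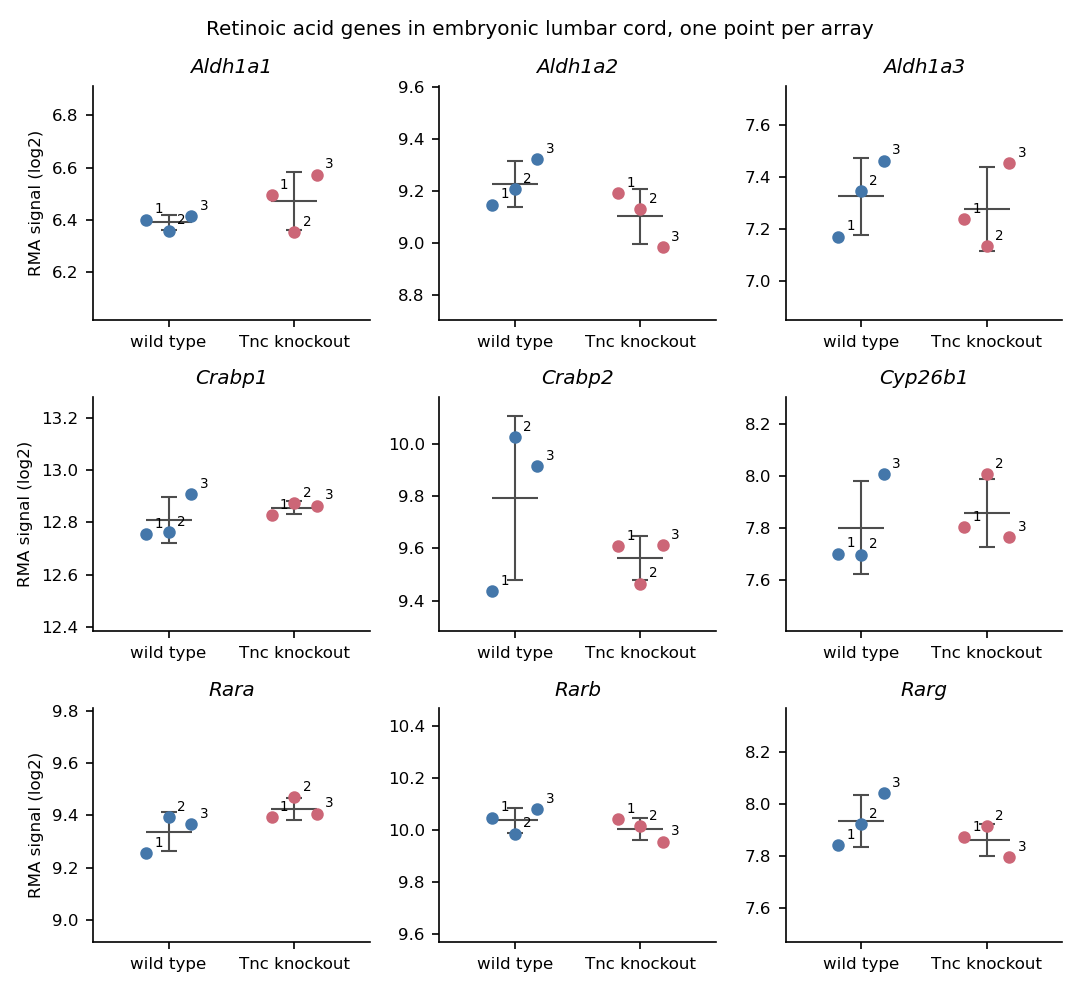
RMA signal on the log2 scale (vertical axis, the same span in each panel) for the 9 genes in wild-type (blue) and Tnc knockout (red) arrays, with 1 point per array numbered by replicate, a bar at the mean and whiskers of 1 SD (n = 3). Crabp2 has the widest spread, from 9.44 to 10.03 within wild type, and only for Rara do the knockout points all lie above the wild-type points, by 0.000501.

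Of the synthesis enzymes, Aldh1a2 is the main source of retinoic acid in the embryonic trunk. It read 9.15, 9.21 and 9.32 in wild-type replicates 1, 2 and 3, and 9.19, 9.13 and 8.98 in the knockout replicates. Knockout replicate 3 was the lowest array and wild-type replicate 3 the highest, while the other 4 arrays lay close together and the groups overlapped. Knockout minus wild type was -0.12 (standard error 0.09, interval -0.32 to 0.08, limma unadjusted p = 0.193, adjusted p rounding to 1), that is 91.9% of wild type with bounds of 80.1% and 105%. An exact two-sided permutation test gave p = 0.2, where 3 arrays against 3 cannot go below 0.1. When single arrays were dropped, the difference ran from -0.17 (without knockout replicate 1) to -0.06 (without knockout replicate 3). It was -0.16 without wild-type replicate 1 and -0.07 without wild-type replicate 3. The groups did not overlap without knockout replicate 1, where the same held for 12.9% of all genes, or without wild-type replicate 1 (16.2% of all genes).

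Aldh1a1, which serves the eye and dopaminergic neurons among other tissues, was close to background. Its wild-type arrays read 6.40, 6.36 and 6.41, and its knockout arrays 6.49, 6.35 and 6.57. Knockout replicates 1 and 3 were the highest arrays, and these are the arrays with Y-linked signal, while replicate 2 lay below all wild-type arrays. The difference of 0.08 had an interval from -0.10 to 0.27. With the sex term the difference was -0.04. Beyond that fit, sex and genotype cannot be told apart here. The difference was 0.14 without knockout replicate 2 and 0.03 without knockout replicate 3.

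Aldh1a3, the family member of ventral eye and nasal epithelium, read 7.17, 7.34 and 7.46 in wild type and 7.24, 7.13 and 7.45 in knockout. Replicate 3 was the highest array in both groups, and the groups overlapped. The difference was -0.05 (interval -0.30 to 0.20), and its sign was not stable. It was 0.02 when either wild-type replicate 3 or knockout replicate 2 was dropped, and -0.14 without knockout replicate 3 and -0.13 without wild-type replicate 1. The sex term gave -0.19.

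Within-group spread was 0.06 for the binding protein gene Crabp1 and 0.23 for Crabp2 (pooled SD over 6 arrays). Crabp1, which holds retinoic acid in the cytoplasm, had a mean signal at the 99.7th percentile of all genes. Its wild-type arrays read 12.75, 12.76 and 12.91 and its knockout arrays 12.83, 12.88 and 12.86. The knockout values fell inside the wild-type range, and the difference of 0.05 had an interval from -0.12 to 0.22, or 91.7% to 116% of wild type. Of all genes 15.96% had a within-group spread as small or smaller. Without wild-type replicate 3 the difference was 0.10, and it was 0.02 without either other wild-type array.

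Crabp2, which delivers retinoic acid to its nuclear receptors, had the widest spread of the members. Wild-type replicate 1 read 9.44, and wild-type replicates 2 and 3 read 10.03 and 9.92. The knockout arrays read 9.61, 9.46 and 9.61. Wild-type replicate 1 was thus the lowest of all 6 arrays, below every knockout array, whereas the other wild-type arrays were above every knockout array. The group means were 9.79 ± 0.31 and 9.56 ± 0.08 (SD, n = 3 each), and the difference of -0.23 (standard error 0.15, interval -0.57 to 0.11, limma unadjusted p = 0.158, adjusted p rounding to 1) equals 85.2% of wild type. Of all genes 97.9% had a difference of this size or smaller, but 91.0% also had a within-group spread as small or smaller. The exact permutation test gave p = 0.4. Without wild-type replicate 1 the difference was -0.41, without replicate 2 it was -0.11 and without replicate 3 it was -0.17, so its size moved with the wild-type arrays.

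Cyp26b1 encodes the hydroxylase that clears retinoic acid in the embryonic hindbrain and limb. It read 7.70, 7.70 and 8.01 in wild type and 7.80, 8.01 and 7.77 in knockout. Each group held 1 array near 8.0 (wild-type replicate 3 and knockout replicate 2) and 2 lower arrays, and the groups overlapped. The difference was 0.06 with an interval from -0.20 to 0.31. It was -0.02 without knockout replicate 2, 0.16 in the absence of wild-type replicate 3, 0.00419 and 0.00597 when wild-type replicate 2 or 1 was dropped.

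Rarb, the receptor gene that retinoic acid itself induces, had the smallest within-group spread of the members. Its wild-type arrays read 10.05, 9.99 and 10.08 and its knockout arrays 10.04, 10.02 and 9.96. All 6 values lay within 0.13 of each other, and only 6.88% of all genes had a within-group spread as small or smaller. The difference was -0.03 with an interval from -0.20 to 0.13, that is 97.7% of wild type with bounds of 87.3% and 109%. Of the 7 members with a start-site window, Rarb is the one whose window carries the DR5 pair printed above. Without knockout replicate 3 the difference was -0.01 and without wild-type replicate 2 it was -0.06. With wild-type replicates 1 and 3 both left out, or with array weights, the difference was 0.02.

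Rara, the receptor gene that most embryonic tissues express, was the single member whose groups did not overlap. It read 9.25, 9.39 and 9.37 in wild type and 9.39, 9.47 and 9.41 in knockout. The lowest knockout array, replicate 1, exceeded the highest wild-type array, replicate 2, by only 0.000501. The difference was 0.09 with an interval from -0.08 to 0.26 (limma unadjusted p = 0.275, adjusted p rounding to 1), or 106% of wild type. The exact permutation test gave p = 0.1, the smallest value this design allows. A count of 1 member in 9 stands against 5.82% of all genes whose groups did not overlap in either direction and 3.18% with knockout higher. With knockout lower the count was 0 members, against 2.64% of all genes. The separation was gone after median centring, renewed quantile normalization or cyclic loess, each of which left 0 of 9 members apart. Of all genes 5.55%, 6.49% and 6.73% were apart in these fits. Without wild-type replicate 1, the lowest array, the difference was 0.04.

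Rarg, a receptor gene better known from skin and cartilage, read 7.84, 7.92 and 8.04 in wild type and 7.87, 7.91 and 7.79 in knockout. Wild-type replicate 3 was highest and knockout replicate 3 lowest, with the remaining arrays mixed. The difference of -0.07 (interval -0.26 to 0.11) became -0.12 when wild-type replicate 1 was dropped, -0.02 when wild-type replicate 3 was dropped and -0.04 when knockout replicate 3 was dropped.

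**Figure D2:**
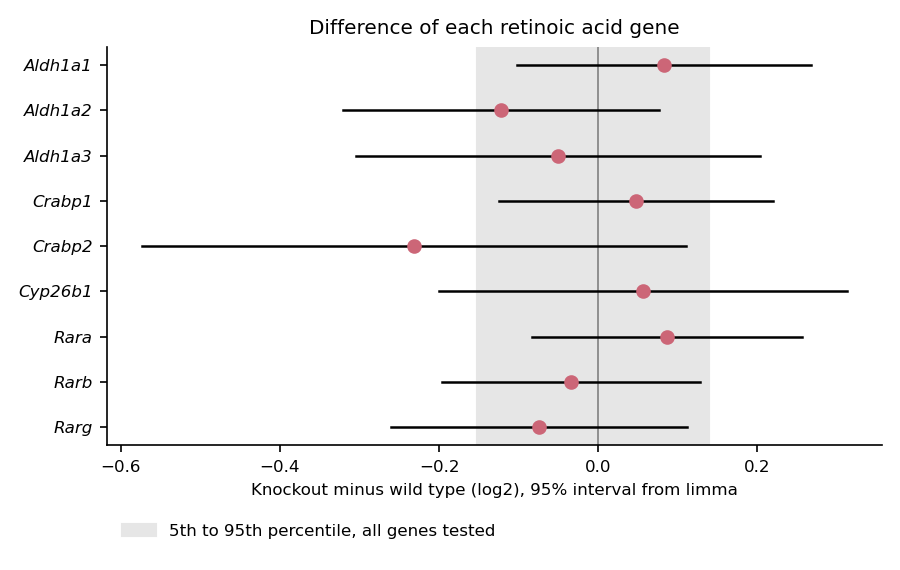
Knockout minus wild type on the log2 scale (horizontal axis) for the 9 genes, with the 95% limma interval as a line and the 5th to 95th percentile of the differences of all 19938 genes (-0.15 to 0.14) in grey. Every interval crosses 0, and Crabp2 at -0.23 is the only point outside the grey band.

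Within wild type, replicate 3 was the highest array for 7 of 9 members, against 45.4% of all genes, and replicate 1 was the lowest for 6 of 9, against 44.5% of all genes. Replicate 1 was the highest for 0 members and replicate 3 the lowest for 0. Within knockout, replicates 1, 2 and 3 were the highest for 2, 4 and 3 members. Leaving out wild-type replicate 1 separated the groups for 4 members (Aldh1a2, Crabp2, Rara and Rarg), where 16.2% of all genes did so. Leaving out wild-type replicate 3 separated them for 3 members (Crabp1, Cyp26b1 and Rara), where 23.5% of all genes did so.

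**Figure D3:**
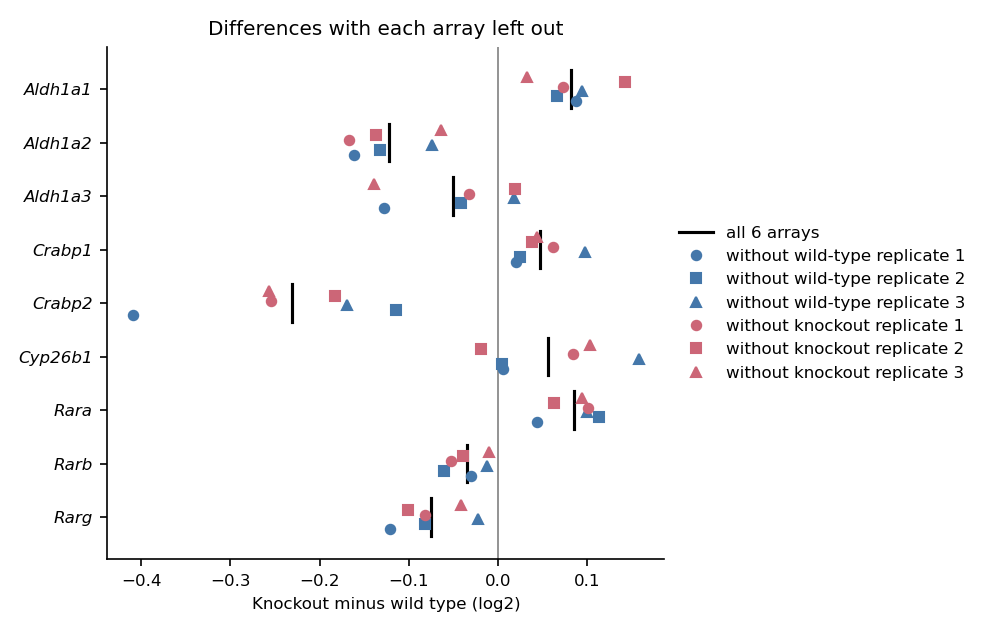
Knockout minus wild type on the log2 scale (horizontal axis) for the 9 genes with all 6 arrays (black bar) and with each wild-type (blue) or knockout (red) array left out. Crabp2 runs from -0.41 to -0.11 on 1 side of 0, while Aldh1a3 and Cyp26b1 cross it.

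No gene of the wider pathway passed the test. Of 64 further genes listed by name in 7 groups, 59 were measured and 45 lay above the background guide. Of the 59, 0 passed the test over all genes, 0 had an unadjusted p under 0.05 (limma), 30 stood higher and 29 lower, and the median difference was 8.33e-05. Differences ran from -0.17 to 0.11. For 1 of them, Adh7, an alcohol dehydrogenase that oxidises retinol, the groups did not overlap, at a difference of 0.09, and it lay under the guide. Among all genes 5.82% had groups that did not overlap and 1.70% an unadjusted p under 0.05.

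On the supply side, the retinol carrier gene Rbp4 differed by 0.08 (interval -0.11 to 0.27), the retinol uptake receptor gene Stra6 by 0.05 (-0.25 to 0.34) and Ttr, which encodes a plasma carrier and lay under the guide, by -0.08. Of 9 measured uptake and binding genes 7 stood higher and 2 lower. Stra6 read 9.94, 10.27 and 10.46 in wild type and 10.30, 10.32 and 10.20 in knockout, so that wild type spanned the knockout arrays. Of 18 oxidoreductases of retinol and retinal, 9 stood higher and 9 lower, and 8 were at or under the guide. The genes of this group with the smallest p besides Adh7 were Adh4 (-0.17, under the guide) and Adh5 (-0.16, interval -0.55 to 0.23). Rdh10, the dehydrogenase that makes retinaldehyde in the embryo, had signals of 8.96 ± 0.04 and 8.95 ± 0.02 in wild type and knockout (SD, n = 3 each). It and Dhrs3, the reductase that reverses this step (difference -0.01), were singled out after their values were seen. The dehydrogenase genes Aldh8a1 (0.11) and Aldh1a7 (-0.05) were both under the guide.

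On the clearance side, all 3 further genes stood lower, whereas the member Cyp26b1 stood higher by 0.06. Cyp26c1 lay 0.66 above the guide and Cyp1b1 only 0.12 above it. Cyp26a1, the retinoic acid hydroxylase whose DR5 pair is printed above, differed by -0.06 (interval -0.31 to 0.18), Cyp26c1 by -0.08 and Cyp1b1, an oxidase of retinol and many other compounds, by -0.05. Cyp26a1 read 5.65, 6.00 and 5.91 in wild type and 5.72, 5.89 and 5.76 in knockout. All of these values were below the guide of 6.14, so of the genes with a printed DR5 pair Rarb lay 3.89 above the guide and Cyp26a1 under it.

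Differences of the partner receptors and coregulators lay between -0.06 and 0.04. The retinoid X receptors, which pair with the Rar proteins, differed by -0.03 (Rxrg), 0.02 (Rxrb) and 0.00831 (Rxra, added after its value was seen), and Ppard, a nuclear receptor for fatty acids, by 0.01. Rxrg read 9.80, 9.78 and 9.78 in wild type and 9.70, 9.80 and 9.78 in knockout. Of 8 measured coregulators 3 stood higher and 5 lower, led by Rere (-0.06), a partner of retinoic acid receptors in the embryo, the coactivator Ncoa1 (-0.06) and the corepressor Nrip1 (-0.04).

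Among 15 measured target genes 7 stood higher and 8 lower, with a median of -0.00486. Hoxb4, a Hox gene with retinoic acid response elements, had the smallest p of the wider pathway. It read 8.92, 8.93 and 8.76 in wild type and 8.81, 8.74 and 8.60 in knockout, with the groups overlapping through wild-type replicate 3. Its difference was -0.15 (interval -0.35 to 0.05, limma unadjusted p = 0.114). Rarres2, which encodes the secreted protein chemerin, differed by -0.15 (-0.42 to 0.11) and Hoxb5 by -0.08 (-0.26 to 0.10). Of 31 genes with a DR5 pair in a start-site window 11 were measured, 3 higher and 8 lower, with a median of -0.03. These 11 include Rarb and Cyp26a1, and the median is the value of Rarb itself. Among 38 measured genes with a DR1 pair 15 were higher and 23 lower, and among 14 with a DR2 pair 6 were higher and 8 lower. None of these genes passed the limma test, and 0 reached an unadjusted p under 0.05. The groups did not overlap for 0 DR5, 0 DR2 and 4 DR1 genes, beside 5.82% of all genes.

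**Figure D4:**
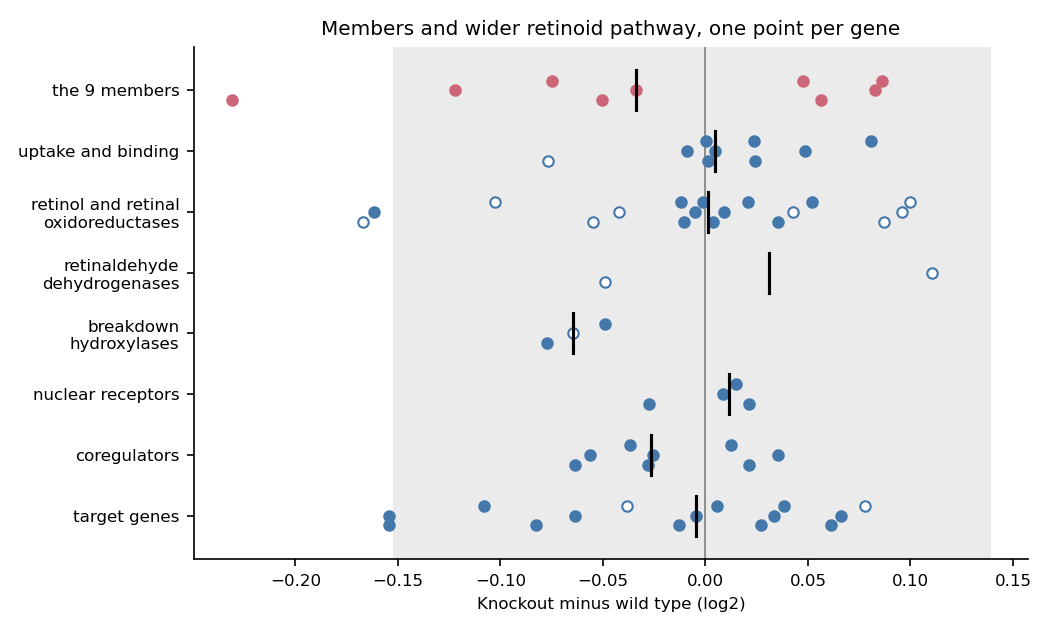
Knockout minus wild type on the log2 scale (horizontal axis) for the 9 members (red) and 59 further retinoid pathway genes in 7 groups (blue), with 1 point per gene, a black bar at each median, open points for genes at or under the background guide, and the 5th to 95th percentile of all genes in grey. Points fall on both sides of 0 in each group except the 3 breakdown hydroxylases, which all lie below it.

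The genes most like a member in their pattern over the 6 arrays were sought for the pair of members with the largest range, among 14683 other genes above the guide, by the root mean square difference of centred log2 values. For Crabp2, with a range of 0.59, these were Cela3a (0.062), Snord15a (0.063) and Hsd11b2 (0.078). Cela3a and Snord15a lay just above the guide, at mean levels of 6.20. For Aldh1a2, with a range of 0.34, they were Kctd10 (0.012), 1700088E04Rik (0.021) and Whamm (0.022). Among so many genes, near matches over 6 values can be found for most patterns, and shared regulation was not tested.

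Markers of cells that make or receive retinoic acid were set beside these values, and their part in the members' values was not tested. All 10 motor neuron markers were above the guide and higher in knockout, with a median difference of 0.10 and none past the test. Their summed linear signal ran from 5887 to 7224 in wild type and from 6636 to 7076 in knockout, lowest in wild-type replicate 1 and highest in wild-type replicate 3. Aldh1a2, lower in knockout, was also highest in that last array but lowest in knockout replicate 3. Of 12 meningeal and fibroblast markers 5 were higher and 7 lower, with a median difference of -0.11. Their sums, which weigh the brightest genes most, were 3695 to 4361 in wild type and 4091 to 4839 in knockout. Lum and Ogn were under the guide in mean level. All 8 endothelial markers were higher, with a median difference of 0.18 and sums of 3703 to 4221 and 4150 to 4594. Of 6 measured dorsal root ganglion markers 3 (Avil, Scn10a and Scn11a) and of 8 muscle and cartilage markers 3 (Myh3, Acan and Matn1) were at or under the guide. Radial glial markers stood higher in 7 of 8, neuronal markers in 8 of 9, roof and floor plate markers in 2 of 4 and lumbar Hox genes in 5 of 6. Of all 19938 genes 9260 stood higher, and none of the marker lists was tested as a set. The groups did not overlap for 4 of 8 endothelial, 3 of 9 neuronal, 2 of 12 meningeal, 1 of 8 radial glial, 1 of 8 muscle and cartilage, 1 of 4 roof and floor plate and 0 of the other markers, beside 5.82% of all genes. Summed signals of each list overlapped between the groups, apart from the neuronal list (37428 to 38606 in wild type and 38666 to 40014 in knockout).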

How the data were processed

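Deposited signals are log2 values. The authors produced them with RMA (no version given), according to the submitters' processing notes. RMA corrects background, equalises probe signals between arrays and summarises probes, which removes any global shift. Total RNA was amplified and labelled with kits for whole transcripts, with 1 array per sample, per the labels' protocols. Scan dates were not given in the sources used here, and the number of arrays limits precision.

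Of 35557 rows, 21789 had 1 gene symbol, 1621 several and 12147 none listed. Symbols were updated through entrez identifiers to RefSeq (19856 of 19938 genes matched). For 999 genes with several rows, the row of highest mean was used. The values name no genome build. Knockout and wild type were compared with limma 3.58.1 in R 4.3.3 (lmFit, eBayes, group as the only term), two-sided, adjusted by Benjamini-Hochberg over all genes, and by exact permutation tests in scipy 1.17.1. The fit was run on simulated data with independent noise of each gene's spread, and genes were counted at an adjusted p under 0.05. It recovered 2% of genes planted at a log2 difference of 0.25, 44% at 0.5, 90% at 1 and 100% at 2. Even under independent noise, differences of the size seen in the members would thus mostly be missed. Noise shared between genes was left out of the simulation, so its rates need not hold for the deposited arrays. In the fit of those arrays Tnc, at a difference of -0.69, did not pass. The members, the pathway and marker lists and the alternatives were chosen with earlier results of these data known. Genes named are Tnc, the members, up to 3 genes of smallest p per pathway list, and the 3 nearest in pattern to each of the 2 members of largest range. Rxra, Rdh10 and Dhrs3 were named outside this rule, after their values were seen. Marker lists covered motor neurons, meninges, endothelium, dorsal root ganglion, muscle and cartilage, radial glia, neurons, roof and floor plate and lumbar level. Replicate numbers were not used as a pairing in the main fit. The deviations of same-numbered arrays correlated at 0.345, -0.0746 and 0.449, and those of other pairs at -0.470 to 0.283. Whether the numbers mark a pairing cannot be told from these values. Figures were drawn with matplotlib 3.10.9.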

Additional observations from a re-analysis of the deposited data

How the results depend on the processing

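No member passed an adjusted p of 0.05 in any of 20 alternative fits, and the smallest adjusted p was 0.0942 (Crabp2 with array weights, whose estimation stopped before it converged; difference -0.46). Unadjusted limma p for Crabp2 was 0.000985 there and 0.00217 without wild-type replicate 1, and for Cyp26b1 0.0220 with array weights. With wild-type replicates 1 and 3 left out, the Crabp2 difference was -0.47. The signs of Aldh1a2, Crabp1, Crabp2, Rara and Rarg held in all of them. Aldh1a1 was -0.0374 with a sex term, Rarb 0.0156 with array weights and 0.0181 with wild-type replicates 1 and 3 left out. With single arrays left out, Aldh1a3 ran from -0.14 to 0.0193 and Cyp26b1 from -0.0188 to 0.16. Genes past the adjusted threshold ran from 0 to 4 over those fits, the 4 arising without knockout replicate 2, and 43 genes had an unadjusted p under 0.01. With single arrays left out, genes at an unadjusted p under 0.05 ran from 220 (without knockout replicate 2) to 1377 (without wild-type replicate 3), and were 663 without wild-type replicate 1. They numbered 636 with the replicate block, 208 among genes above the median level, 4181 with array weights, 201 with a sex term and 844 with wild-type replicates 1 and 3 left out. Members with separate groups ran from 1 to 4 with single arrays left out, and were 0 with renewed quantile normalization, 0 with median centring, 0 with cyclic loess and 6 with wild-type replicates 1 and 3 left out, where 49.0% of all genes were separate because 1 wild-type array remained. The median over the members ran from -0.04 to 0.02 and that over the wider pathway from -0.0192 to 0.00973 with single arrays left out. The replicate block changed no call of a member. Wild-type replicates 1 and 3 deviated most like the knockout arrays of the same number (correlations 0.345 and 0.449). Wild-type replicate 2 deviated most like knockout replicate 1 (0.283), so the values leave a pairing by number undecided. Aldh1a1, Aldh1a3 and Cyp26b1 were not tested among genes above the median level, since they lie under it.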
